A study of Homo sapiens with 9 samples.

Results

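The Snail, ZEB, GRHL2 and miR-200 circuit was followed here through 7 genes in HCT116 cells, a human colorectal carcinoma line with epithelial growth. The members were SNAI1 (Snail1), SNAI2 (Slug), ZEB1, ZEB2, GRHL2, MIR200C and MIR141, taken by their gene symbols out of 14884 genes measured. Each was represented by 1 probe set, so no choice among probe sets was needed. Cells of both groups had been infected with lentivirus and were cultured for 72 h with 10% serum. The methods describe collection soon after infection as well as selection with puromycin, without saying which applied to the arrays. The shH2A.X group (5 arrays) carried a hairpin against H2AFX, the gene of the histone variant H2A.X, and the shCTRL group (4 arrays) carried a scrambled hairpin. Values are deposited log2 expression values from Affymetrix Human Gene 2.0 ST arrays, so that a difference of 1 stands for a doubling, and the medians of the arrays lay between 4.54 and 4.577. The H2AFX transcript itself was not analysed here. A legend calls the replicates independent, but no source says whether they came from separate infections or cultures, so the p-values below measure the spread between these arrays, which may be technical in part.

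In epithelial cells, GRHL2 maintains transcription of junction genes and opposes ZEB1, while ZEB1 and ZEB2 repress GRHL2 and the genes of the miR-200 family. The miR-200 family in turn binds ZEB1 and ZEB2 transcripts and lowers their output, which makes the arms of the circuit mutually repressive. Snail1 and Slug are zinc-finger repressors that bind E-box motifs in epithelial genes and can act upstream of the ZEB factors during the epithelial–mesenchymal transition (EMT).

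The members were selected with their array values known, so the differences between the groups below are descriptions and carry no test. All 7 were among the genes called different by limma at an adjusted p under 0.05, beside 22.9% of all genes tested, and nothing is read from that count. MIR141 lost this call without shCTRL replicate 1 or shCTRL replicate 2. For 6 of the 7 the values of the groups did not overlap, a pattern shown by 22.8% of all genes.

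The mature microRNAs of the family are shown because the seed, bases 2 to 8 (in capitals), decides which transcripts a microRNA pairs with, and because the member loci carry different seeds. The sequences are RefSeq's (GRCh38.p14), written 5′ to 3′. The first group shares the seed of miR-200c-3p.
hsa-miR-200c-3p: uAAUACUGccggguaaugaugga
hsa-miR-200b-3p: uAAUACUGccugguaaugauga
hsa-miR-429: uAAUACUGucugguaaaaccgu
The second group shares the seed of miR-141-3p.
hsa-miR-141-3p: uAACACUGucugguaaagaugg
hsa-miR-200a-3p: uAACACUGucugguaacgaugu
Counted from the 5′ end, miR-141-3p differs from miR-200c-3p within the first 8 bases by U4C. MIR200C (chr12:6963699-6963766) and MIR141 (chr12:6964097-6964191) lie side by side, whereas MIR200B, MIR200A and MIR429 form a cluster on chromosome 1.

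For the transcription factors, promoter windows of 300 bases (250 before to 50 after a transcription start) matched ZEB1 (7 windows) and ZEB2 (1 window). The E-box CAGGTG, to which Snail and ZEB factors bind, was searched on both strands (CACCTG on the other strand). It was found in 2 of the 7 ZEB1 windows and not in the ZEB2 window, against 20.6% of 35116 windows of all genes. Both ZEB1 windows with a match are shown, on the plus strand with the E-boxes in capitals, because ZEB1 itself was among the genes that differed. The first, chr10:31318167-31318466, holds the motif 57 bases before the start of the gene.
ZEB1 window 1: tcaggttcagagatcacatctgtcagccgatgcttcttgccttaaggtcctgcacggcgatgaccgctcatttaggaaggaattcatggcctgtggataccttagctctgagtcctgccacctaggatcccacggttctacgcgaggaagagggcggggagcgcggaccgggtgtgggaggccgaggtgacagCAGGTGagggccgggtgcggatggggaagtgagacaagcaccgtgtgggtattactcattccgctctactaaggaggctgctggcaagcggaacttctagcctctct
The second, chr10:31318966-31319265, belongs to a start inside the gene and holds 3 matches, a number reached by 0.635% of all windows at 3 or more.
ZEB1 window 2: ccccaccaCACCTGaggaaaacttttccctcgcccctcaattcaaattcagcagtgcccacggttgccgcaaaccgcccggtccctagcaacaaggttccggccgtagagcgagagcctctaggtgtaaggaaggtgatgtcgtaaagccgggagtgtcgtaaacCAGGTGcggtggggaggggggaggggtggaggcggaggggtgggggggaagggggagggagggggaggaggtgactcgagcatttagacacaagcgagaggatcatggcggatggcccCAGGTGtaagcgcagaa
A match is a stretch of letters and not evidence of binding.

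Among the Snail and ZEB factors, SNAI2 and ZEB1 were higher in shH2A.X cells, ZEB2 was slightly higher and SNAI1 was lower. SNAI2 (chr8:48917598-48921429) read 7.96, 7.80, 8.004, 7.60 and 7.69 in shH2A.X replicates 1 to 5, and 5.9999, 5.56, 6.11 and 6.33 in shCTRL replicates 1 to 4. Every shH2A.X array lay above every shCTRL array, with 1.26 between the nearest values. The mean was 7.81 ± 0.17 (SD, n = 5) in shH2A.X cells and 6.001 ± 0.33 (SD, n = 4) in shCTRL cells, a log2 difference of 1.81 (SE 0.14) or 3.51-fold.

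ZEB1 (chr10:31318417-31529804), a zinc-finger homeobox repressor, read 7.05, 6.80, 7.01, 6.90 and 6.93 in shH2A.X cells, and 5.63, 5.49, 5.66 and 5.92 in shCTRL cells. These groups were also apart, by 0.88, and the arrays of the shH2A.X group lay close together (SD 0.10, n = 5, against 0.18, n = 4, in shCTRL cells). The log2 difference was 1.26 (SE 0.09), or 2.40-fold.

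ZEB2 (chr2:144384081-144520119), the paralogue of ZEB1, read 4.50, 4.76, 4.82, 4.68 and 4.62 in shH2A.X cells, and 4.27, 4.58, 4.16 and 4.24 in shCTRL cells. It was the only member whose groups overlapped, since shCTRL replicate 2 exceeded shH2A.X replicate 1. The log2 difference was 0.37 (SE 0.09), or 1.29-fold. Values of ZEB2 lay near the array medians, below them on 1 of 5 shH2A.X arrays and on 3 of 4 shCTRL arrays, and with no detection calls in the table the background level there is unknown.

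SNAI1 (chr20:49982980-49988886) moved against the other Snail member. It read 6.49, 6.11, 6.24, 6.26 and 6.001 in shH2A.X cells, and 6.67, 6.95, 7.11 and 6.66 in shCTRL cells. The groups did not overlap, but only 0.18 separated shH2A.X replicate 1 from shCTRL replicate 4. The mean was 6.22 ± 0.18 (SD, n = 5) in shH2A.X cells and 6.85 ± 0.22 (SD, n = 4) in shCTRL cells, a log2 difference of −0.63 (SE 0.12), or 1.55-fold lower.

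**Figure D1:**
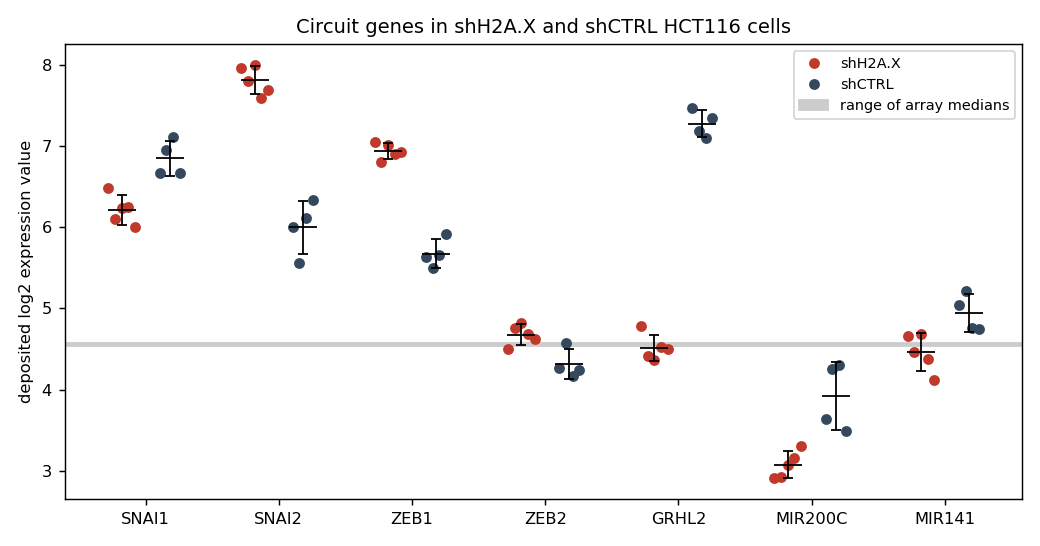
Deposited log2 expression values (vertical axis) of the 7 circuit genes (horizontal axis) on each of 5 shH2A.X arrays (red, left of each pair) and 4 shCTRL arrays (dark, right). Black bars give the mean and SD and the grey band the range of array medians. SNAI2 and ZEB1 lie higher and SNAI1, GRHL2 and both microRNA loci lower in shH2A.X cells, while the ZEB2 groups overlap.

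On the epithelial side, GRHL2 (chr8:101492439-101681200), a grainyhead-family activator of junction genes, had the largest difference of the 7. It read 4.78, 4.42, 4.36, 4.52 and 4.50 in shH2A.X cells, and 7.47, 7.19, 7.09 and 7.35 in shCTRL cells. The groups were 2.31 apart at their nearest values. The log2 difference was −2.76 (SE 0.10), or 6.77-fold lower, and it lay beyond that of 99.9% of all genes in size. On 4 of 5 shH2A.X arrays GRHL2 was below the array's own median, so its remaining level, and with it the fold, is uncertain.

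The locus of miR-200c, MIR200C, read 2.91, 2.92, 3.07, 3.16 and 3.31 in shH2A.X cells, and 3.64, 4.25, 4.30 and 3.49 in shCTRL cells. All 9 values lay below the array medians, and the shCTRL arrays fell into a higher and a lower pair. The log2 difference was −0.84 (SE 0.17), or 1.80-fold lower, with 0.18 between the groups. MIR141, its neighbour, read 4.67, 4.47, 4.68, 4.38 and 4.12 in shH2A.X cells, and 5.05, 5.22, 4.76 and 4.74 in shCTRL cells. Here only 0.06 separated the groups, and the log2 difference was −0.48 (SE 0.13), or 1.39-fold lower. These probe sets read RNA of the loci prepared from total RNA, and the amount of mature microRNA was not measured.

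Whether the members also moved together from array to array was asked of the deviation of each array from its own group mean, which does not contain the difference between the groups. Of 21 pairs of members, 8 had a positive and 13 a negative correlation over the 9 arrays, with r between −0.63 and 0.83. An exact permutation of the arrays within the groups (2880 orders, two-sided) gave p under 0.05 for 1 pair and an adjusted p under 0.05 for 0 of 21 pairs, the smallest adjusted p being 0.649. That pair was SNAI2 and ZEB1 (r = 0.83, exact permutation p = 0.0309, adjusted p = 0.649 over 21 pairs, and rho = 0.80, exact permutation p = 0.0253, adjusted p = 0.532). Without the 2 arrays farthest from the median of SNAI2, r was 0.61 (exact permutation p = 0.229, with fewer orders). The relation thus rests in part on shCTRL replicates 2 and 4, the lowest and the highest shCTRL arrays for both genes. When single arrays were left out, r of this pair stayed between 0.74 and 0.91. Among all other genes, 0.598% followed SNAI2 and 0.524% followed ZEB1 with an r at least as high.

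The opposed arms did not show a mutual pattern within the groups that passed the test. ZEB1 and MIR200C deviated in opposite directions (r = −0.56, exact permutation p = 0.266, adjusted p = 0.663, rho = −0.40, adjusted p = 0.859), but r was 0.05 without the 2 farthest arrays. ZEB1 and GRHL2, which differed in opposite directions between the groups, had r = 0.39 within them (exact permutation p = 0.36, adjusted p = 0.687, rho = 0.28, adjusted p = 0.884). GRHL2 and MIR200C, both lower in shH2A.X cells, had r = −0.63 within the groups (exact permutation p = 0.125, adjusted p = 0.651, rho = −0.68, adjusted p = 0.683). MIR200C and MIR141, which are neighbours, had r = −0.09 (exact permutation p = 0.793, adjusted p = 0.898, rho = 0.00, adjusted p = 1). Of 12 pairs that differed in opposite directions between the groups, 8 had a negative r within them, and of 9 pairs that differed in the same direction, 4 had a positive r. Leaving out the 2 farthest arrays turned the sign of r in 9 of the 21 pairs. With 9 arrays, correlations of this size were not distinguishable from the spread between arrays.

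**Figure D2:**
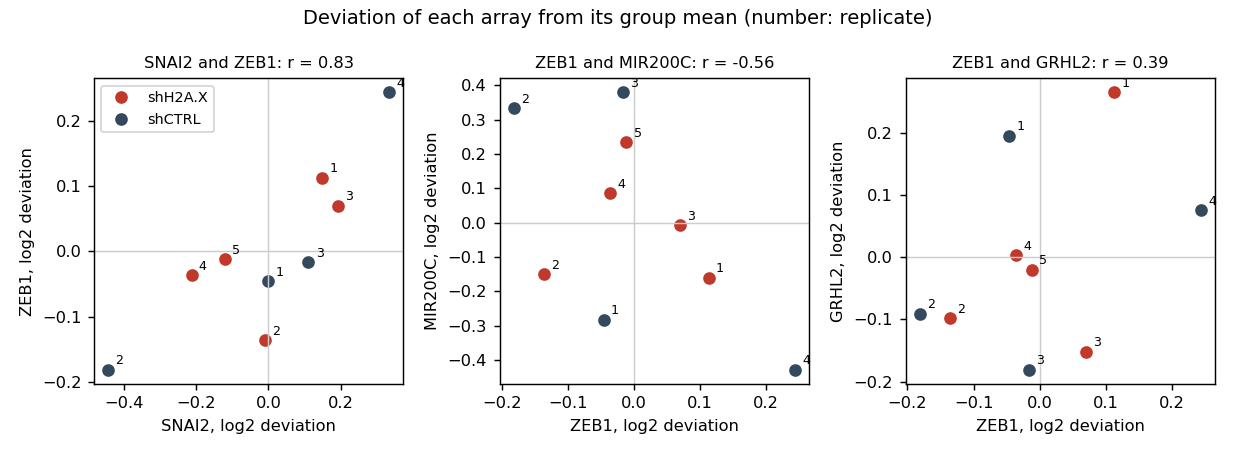
Deviation of each array from the mean of its group, in log2 units on both axes, for SNAI2 and ZEB1 (left), ZEB1 and MIR200C (middle) and ZEB1 and GRHL2 (right), with shH2A.X arrays in red, shCTRL arrays in dark and replicate numbers beside the points. SNAI2 and ZEB1 follow each other (r = 0.83), in part through shCTRL replicates 2 and 4, and no pair passed the adjusted test.

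Relatives of the members, named after their values had been seen, differed in part like the members. In log2 units, GRHL1 fell by 0.74 (SE 0.10, limma adjusted p = 0.000236) and GRHL3 fell by 0.50 (SE 0.15, limma adjusted p = 0.0302). The call of GRHL3 was lost without shCTRL replicate 2 (adjusted p = 0.088) or shCTRL replicate 4 (adjusted p = 0.0662), and in the methods' t-test (adjusted p = 0.0945). OVOL1, a zinc-finger repressor of ZEB1 in epithelia, fell by 0.69 (SE 0.10), whereas its paralogue OVOL2 had a log2 difference of 0.07 (SE 0.07, adjusted p = 0.527 from limma). The splicing regulators ESRP1 and ESRP2, which produce epithelial isoforms, had log2 differences of −1.33 (SE 0.09) and −0.39 (SE 0.09) and both passed as lower.

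The second cluster of the miR-200 family did not pass the test at any of its loci. Values of MIR200A and MIR429 lay below the array medians in both groups, where the background level is unknown, so a difference there could be missed. MIR200A, with the seed of miR-141, ranged from 3.22 to 3.77 in shH2A.X cells and from 3.58 to 3.92 in shCTRL cells. MIR200B and MIR429, with the seed of miR-200c, had log2 differences of 0.08 (SE 0.09) and 0.08 (SE 0.09). Their 95% intervals ran from −0.11 to 0.28 in both cases, and that of MIR200A from −0.45 to 0.04. The difference between the clusters was not tested, because MIR200C and MIR141 were chosen by their values.

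**Figure D3:**
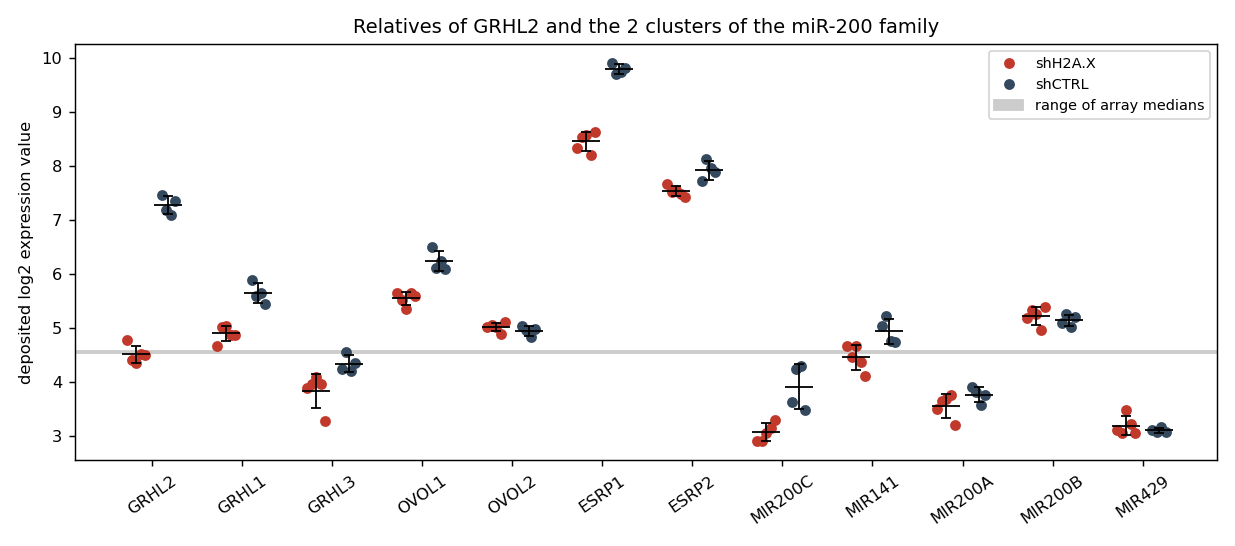
Deposited log2 expression values of GRHL2 and its functional relatives and of the 5 loci of the miR-200 family on 5 shH2A.X arrays (red, left of each pair) and 4 shCTRL arrays (dark, right), with mean and SD in black and the range of array medians in grey. GRHL1, OVOL1 and ESRP1 lie lower in shH2A.X cells like GRHL2, and the groups overlap at OVOL2, MIR200A, MIR200B and MIR429.

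Genes described as repressed by Snail or ZEB factors were mostly lower in shH2A.X cells. The lists here and below were written with earlier results of these data known, so their counts are descriptions. Of 30 genes listed, 21 were measured under the annotation used, and CDH1 was not among them. Of the 21 measured, 15 fell and 1 rose, beside 10.7% of all genes tested that fell and 12.2% that rose. Their median log2 difference was −0.37 against 0.00 over all genes. The claudin CLDN7 fell by 1.73 (SE 0.06), MARVELD3, a tight junction membrane protein, fell by 1.28 (SE 0.11), and ST14, the membrane serine protease matriptase, fell by 1.22 (SE 0.06). TSPAN1, a tetraspanin, rose by 0.39 (SE 0.06, adjusted p = 0.000536 from limma). Of 16 measured genes described as activated by GRHL2, 9 fell and 0 rose (1 rose at an unadjusted p under 0.05, and 1 rose after adjustment without shH2A.X replicate 4), with a median of −0.33. The lists are not independent, since 7 of these 16 genes are also among the 21 described as repressed by Snail or ZEB factors, and 4 of the 9 that fell (EPCAM, CLDN3, LSR and ST14) are counted in both. Of the 5 that fell and are not shared, CDS1, an enzyme of phospholipid synthesis, fell by 0.85 (SE 0.07).

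Transcripts described as miR-200 targets were more often higher. Of 26 measured, 14 rose (53.8%, against 12.2% of all genes) and 3 fell (11.5%, against 10.7%), with a median log2 difference of 0.22. Without single arrays, 11 to 14 rose. NRP1, a co-receptor for semaphorins and VEGF, rose by 1.31 (SE 0.09), TIMP2, an inhibitor of metalloproteinases, by 1.08 (SE 0.07) and FN1, fibronectin, by 0.97 (SE 0.07). JAG1, a Notch ligand, fell by 0.78 (SE 0.06), MAML3, a Notch coactivator, fell by 0.56 (SE 0.06) and MARCKS, an actin-linked protein kinase C substrate, fell by 0.28 (SE 0.06). Of 30 mesenchymal genes listed, 13 were measured and 10 rose (76.9%, against 12.2% of all genes), with a median of 0.85. Of these 13, 0 fell (0 also at an unadjusted p under 0.05), beside 10.7% of all genes. THBS1, thrombospondin, rose by 2.90 (SE 0.07), VCAN, the proteoglycan versican, by 2.11 (SE 0.06) and CCN2, a matricellular protein, by 1.44 (SE 0.15).

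Other EMT-inducing transcription factors were called about as often as genes in general. Of 15 measured, 2 rose (13.3%, against 12.2% of all genes) and 2 fell (13.3%, against 10.7%), with a median of 0.04, and 1 rose without shH2A.X replicate 2, while 1 rose and 4 fell without shCTRL replicate 1. FOXQ1, a forkhead factor, rose by 0.56 (SE 0.07), while SOX4 fell by 1.36 (SE 0.06) and GATA6 fell by 0.74 (SE 0.10). The log2 differences of TWIST1 and TWIST2 were 0.17 (SE 0.10, adjusted p = 0.29 from limma) and −0.11 (SE 0.07, adjusted p = 0.319 from limma). SNAI3, the third Snail gene, had a log2 difference of −0.23 (SE 0.10, adjusted p = 0.126 from limma), which passed without shCTRL replicate 1 (adjusted p = 0.0239). Of 22 listed epithelial transcription and splicing regulators, 16 were measured. Of these, 5 fell (31.2%, against 10.7% of all genes), namely GRHL1, GRHL3, OVOL1, ESRP1 and ESRP2, already given above. Without single arrays, 4 to 6 fell. Only EHF, an epithelial ETS factor, rose (6.25%, against 12.2% of all genes), by 1.68 (SE 0.06).

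Genes upstream of the circuit included both higher and lower ones. Of 42 listed inducers of SNAI and ZEB transcription, 30 were measured. Of these 30, 11 rose (36.7%) and 8 fell (26.7%), beside 12.2% and 10.7% of all genes. EDN1, the peptide endothelin-1, rose by 3.37 (SE 0.09), FOSL1 by 1.15 (SE 0.05) and JUN by 1.04 (SE 0.06), both subunits of AP-1. EGR1, an immediate-early factor, fell by 2.39 (SE 0.08) and MYC fell by 1.73 (SE 0.08). Of 27 listed corepressors and chromatin partners, 25 were measured, of which 6 rose (24%) and 4 fell (16%). Among them, the acetyltransferase KAT2B rose by 1.10 (SE 0.08) and the Snail-binding LIM protein WTIP by 0.53 (SE 0.12). KDM1A, the histone demethylase recruited by Snail1, fell by 0.40 (SE 0.05), and YAP1, a Hippo coactivator, fell by 0.44 (SE 0.05). The acetyltransferase EP300 rose by 0.24 (adjusted p = 0.0444 from limma), a call lost without any single array except shH2A.X replicate 4. MTA1, a subunit of the NuRD complex, fell by 0.24 (adjusted p = 0.0171 from limma), which was lost without shCTRL replicate 2 (adjusted p = 0.056). Of 26 listed genes of Snail and ZEB protein stability and localization, 15 were measured. Among these, LOXL2, a lysyl oxidase that stabilizes Snail1, rose by 1.31 (SE 0.07). FBXL5, a ubiquitin ligase subunit, rose by 0.25 (SE 0.06). The 2 that rose were 13.3% of those measured, near the 12.2% of all genes, and 0 fell (1 at an unadjusted p under 0.05). This count depended on the setting, since 5 rose and 1 fell under quantile normalization or a mean-variance trend. Of 21 other microRNA loci described as restraining EMT, 20 were measured. Among these, MIR30A rose by 0.64 (SE 0.20, adjusted p = 0.0414 from limma) and MIR96 by 0.33 (SE 0.10, adjusted p = 0.0326 from limma). These 2 were 10% of the loci measured, near the 12.2% of all genes. Neither call was robust, since both were lost without shH2A.X replicate 2, shH2A.X replicate 3, shH2A.X replicate 4, shCTRL replicate 2 or shCTRL replicate 4, and that of MIR96 also without shH2A.X replicate 1 or shCTRL replicate 3. In this list 0 fell (1 at an unadjusted p under 0.05, and 1 after adjustment without shH2A.X replicate 5).

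**Figure D4:**
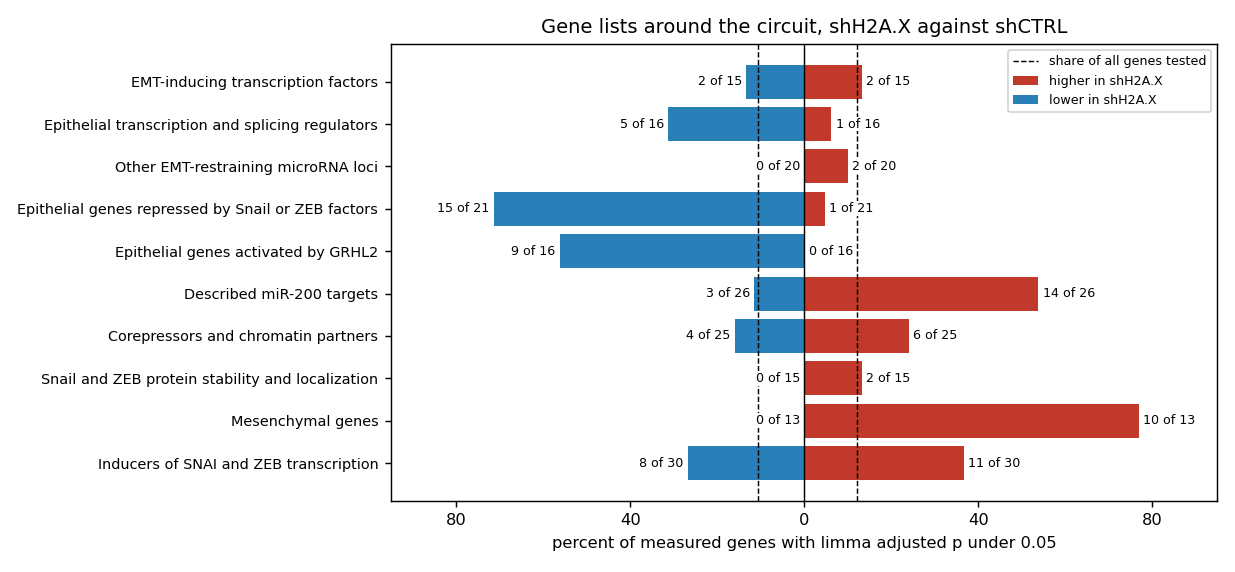
Percent of the measured genes of 10 lists with a limma adjusted p under 0.05, higher in shH2A.X cells to the right (red) and lower to the left (blue), with counts beside the bars and dashed lines at the shares of all genes tested (12.2% higher and 10.7% lower). Genes described as repressed by Snail or ZEB factors (15 of 21 lower) and mesenchymal genes (10 of 13 higher) stand at opposite sides, and 15 genes are in more than 1 list. The lists were written with earlier results of these data known.

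Most epithelial and intestinal markers had means above the array medians in both groups, but CEACAM5 lay below them, at 3.47 to 3.92 in shH2A.X cells and 3.56 to 4.34 in shCTRL cells. Of 8 measured epithelial and intestinal markers, KRT19 and KRT20 rose by 0.64 (SE 0.05) and 1.00 (SE 0.12), EPCAM fell by 0.67 (SE 0.05) and 5 did not pass, and the summed log2 level of the list was 58.4 to 58.9 in shH2A.X cells and 56.6 to 57.9 in shCTRL cells. The fibroblast markers LUM and DCN lay below the array medians in both groups, with a summed level of 5.57 to 6.16 in shH2A.X cells and 6.04 to 6.39 in shCTRL cells. Of 3 measured leukocyte and endothelial markers, the lysosomal protein CD68 rose by 0.90 (SE 0.07), while VWF and PECAM1 lay below the array medians. The summed level of these 3 was 14.3 to 14.5 in shH2A.X cells and 13.1 to 13.8 in shCTRL cells. In these bulk cultures of HCT116 cells, a change in part of the cells and a change in all of them cannot be told apart.

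The genes next to the members are given as a description. Because the members were chosen with their values known, smaller differences beside them are not read as a result. Of 18 genes, the 3 measured nearest each of 6 loci, 4 fell (22.2%) and 0 rose (limma, adjusted p under 0.05). Of all genes, 10.7% fell and 12.2% rose, and 22.9% were called in either direction. At an unadjusted p under 0.05, 0 of the 18 rose. ZEB1-AS1 and ZEB2-AS1, antisense transcripts that overlap their partners, had log2 differences of −0.09 (SE 0.06) and 0.09 (SE 0.09). NCALD, 5.34 kb from GRHL2, had a log2 difference of 0.01 (SE 0.11), which lay at −0.01 when all its probe sets were averaged. Its means were 3.60 in shH2A.X cells and 3.59 in shCTRL cells, below the array medians. Those of PPDPFL, CLXN, TEX41 and ZEB2-AS1 were below them too. UBE2V2, counted at the SNAI2 locus, lay 853 kb away. PHB2, 1.14 kb from the microRNA pair on chromosome 12, had a log2 difference of −0.12 (SE 0.05, adjusted p = 0.114 from limma), while the small Cajal body RNA SCARNA12, 3.15 kb away, fell by 0.41 (SE 0.06, adjusted p = 0.000645 from limma). QTMAN near ZEB2 fell by 0.31 (SE 0.06), and RNF114 near SNAI1 and ZNF438 near ZEB1 had log2 differences of −0.21 (SE 0.07, limma adjusted p = 0.0399) and −0.23 (SE 0.08, limma adjusted p = 0.0489). These last calls were lost when single arrays were left out, that of RNF114 in all cases but shH2A.X replicate 3 and shCTRL replicate 1, and that of ZNF438 in all cases but shH2A.X replicate 3 and shCTRL replicate 3.

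**Figure D5:**
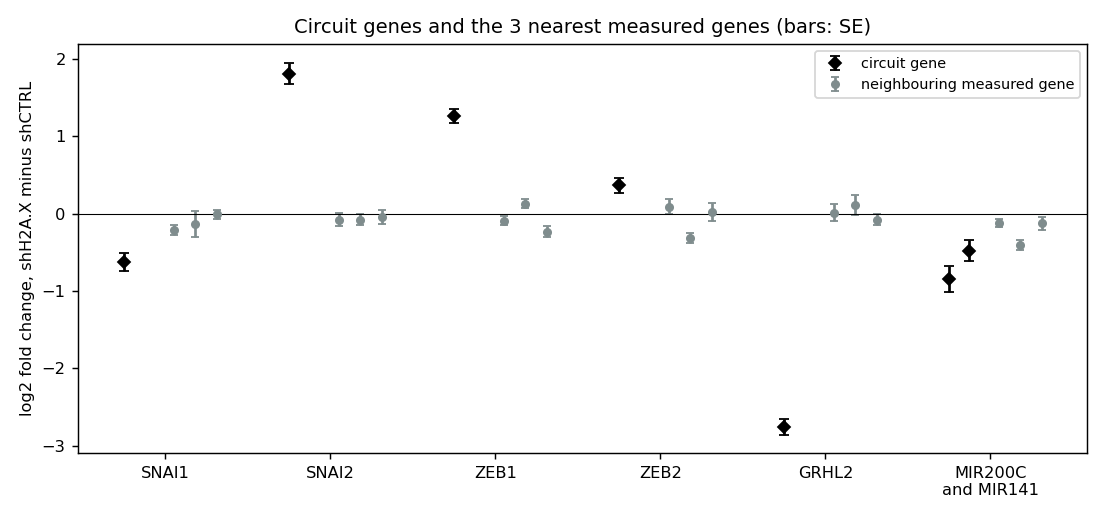
Log2 fold change (vertical axis, shH2A.X minus shCTRL, bars SE) of the circuit genes (black diamonds) and of the 3 nearest measured genes at each locus (grey circles). The neighbours lie between −0.41 and 0.13, and the members were chosen with their values known.

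The genes whose profiles over the 9 arrays lay nearest to each member, by the root mean square difference after centring each gene on its own mean, are given as a description. For SNAI2 they were CD22, CPA4 and HEG1 (differences of 0.172, 0.184 and 0.195 log2 units), and for ZEB1 they were MAP3K5, SOCS6 and MIR4435-2HG (0.0978, 0.118 and 0.118). GRHL2 lay nearest to SAT1, S100A14 and EGR1 (0.211, 0.255 and 0.272), which like it were far lower in shH2A.X cells. This measure keeps the difference between the groups, so genes with a similar difference come out near by construction. SNAI1 lay nearest to DMRT1, NLE1 and LLGL2 (0.0766, 0.0989 and 0.114), and ZEB2 to CDON, NUBP1 and RBPMS (0.0698, 0.0786 and 0.0797). MIR200C lay nearest to MTNR1A, JAKMIP1-DT and SLC35D4 (0.185, 0.192 and 0.222), and MIR141 to IL1RAPL1, TMEM238 and COX8A (0.106, 0.107 and 0.109). The other members were left out of this search, so it does not show how near the members lay to each other.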

How the data were processed

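RNA from 5 shH2A.X and 4 shCTRL HCT116 samples was hybridized to 1 array each (100 ng input per the labels). The authors normalized the CEL files in Partek 6.6 after use of Affymetrix Expression Console, and deposited log2 values for 53617 probe sets. The normalization method is not given in the sources used here. The methods count 5 arrays in each group, and no further shCTRL array was analysed here.

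Probe sets were named from the platform annotation and the GRCh38.p14 gene table: 16098 had 1 symbol and 37519 are unnamed here. These gave 14884 genes, and for the 779 with more than 1 probe set that with the highest mean was used. Differences were fitted with limma 3.58.1 in R 4.3.3 (lmFit, eBayes, Benjamini-Hochberg over all genes, no filter), after the scripts were tested on simulated data. Precision is limited by how many arrays there are (median SD within groups 0.127). Covariation was computed on group-centred values. Promoter and microRNA sequences came from RefSeq. Figures were drawn with matplotlib 3.10.9.

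The members and the gene lists were chosen with earlier results of these data known. Named genes are the members, up to 3 called genes per direction and list with the largest changes, and the 3 genes nearest each member in profile. The relatives, the E-box search and the neighbouring genes were added after values were seen. Alternatives were quantile normalization, median centring, the mean of all probe sets, a filter on dim genes, the methods' t-test, a mean-variance trend, array weights, the replicate number as a block and leaving out each array.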

Additional observations from a re-analysis of the deposited data

Results flagged for a closer look

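Among 152 groups of arrays (76 named genes, 2 groups each), 8 held an array set apart from the others of its group, where chance flags about 1 in 20 groups. No member of the circuit was among them. In shH2A.X replicate 3, EGR1 read 7.65 against 7.23 to 7.32 on the other shH2A.X arrays, JAG1 read 8.88 against 8.67 to 8.70, and KDM1A read 10.19 against 10.12 to 10.14. In shH2A.X replicate 5, GRHL3 read 3.28 against 3.90 to 4.09, and MTA1 read 7.71 against 7.86 to 7.90. NRP1 read 6.28 in shH2A.X replicate 1 against 6.52 to 6.59, and TWIST2 read 4.01 in shH2A.X replicate 2 against 3.79 to 3.85. UBE2V1, a neighbour of SNAI1, read 9.83 in shCTRL replicate 1 against 9.92 to 9.93 on the other shCTRL arrays.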

How the results depend on the processing

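The log2 differences of the 7 members kept their direction in all alternatives run, and without single arrays they ranged from −2.83 to −2.69 for GRHL2, 1.66 to 1.92 for SNAI2, 1.20 to 1.34 for ZEB1, 0.32 to 0.45 for ZEB2, −0.70 to −0.54 for SNAI1, −0.99 to −0.72 for MIR200C and −0.55 to −0.39 for MIR141. The filter on dim genes (mean of at least 4.562) left 10563 genes and removed ZEB2 and MIR200C, and the methods' t-test called 4761 genes at an unadjusted p under 0.05 and 3213 after Benjamini-Hochberg adjustment, MIR141 not among them, and its call was also lost without shCTRL replicate 1 or 2 and under the replicate block. Pairs of members past the adjusted test numbered 0 in all alternatives in which they were tested. Without the 2 farthest arrays, so few orders remain that a single pair could not pass at any r, so nothing is read from that setting. The correlation of ZEB1 and MIR200C was 0.0498 without the 2 farthest arrays, and that of MIR200C and MIR141 was 0.00 as Spearman's rho. Without single arrays r ranged from −0.46 to 0.15 for MIR200C and MIR141 and from −0.24 to 0.25 for SNAI1 and SNAI2. For SNAI2 and ZEB1 it ranged from 0.74 to 0.91, and for ZEB1 and MIR200C from −0.73 to −0.16. Near 0, the log2 differences of neighbouring genes changed sign: NCALD was −0.0146 with the mean of all probe sets, and without single arrays the ranges were −0.0404 to 0.101 for NCALD, −0.0965 to 0.0843 for TEX41, −0.284 to 0.0252 for TRERNA1, −0.0361 to 0.0184 for UBE2V1 and −0.0868 to 0.00815 for UBE2V2. Of 1160 comparisons of named genes with their values under an alternative, 55 lost their call, 5 gained one and 14 changed sign. List counts also moved, among them those of Snail and ZEB protein stability (5 higher and 1 lower under quantile normalization or a mean-variance trend, 4 higher with the dim filter or the t-test) and other EMT-restraining microRNA loci (0 to 2 higher without single arrays). The causes were not tested.

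Replicate numbers are shared between the groups, and the labels do not say whether same-numbered arrays were paired. Over all genes, same-numbered arrays did not deviate together (correlations of −0.004, 0.024, −0.068 and −0.086). Pairing that touches only part of the genes was not tested. With the number as a replicate block, 1270 genes rose and 1074 fell, against 1813 and 1591 without it, UBE2V1 was at 0.0184 and r of MIR200C and MIR141 at 0.17, and 9 described miR-200 targets were higher, against 14. ESRP2 (adjusted p = 0.0503) and MARCKS (adjusted p = 0.0516) lost their limma calls under the block. Without detection calls, the values of dim loci such as MIR200C may include background of unknown size.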
